A study of Mus musculus with 9 samples.

Results

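Serine is made from a glycolytic intermediate by 3 enzymes in turn: Phgdh, phosphoglycerate dehydrogenase, takes the first step, Psat1, phosphoserine aminotransferase, the second, and Psph, phosphoserine phosphatase, releases serine. Shmt1 in the cytosol and Shmt2 in mitochondria then split serine into glycine and a one-carbon unit that is carried by folate. Mthfd1 in the cytosol and Mthfd2 and Mthfd1l in mitochondria pass this unit between its oxidation states and to and from formate, for nucleotide and methyl group synthesis. In the nervous system much of the serine is known to be made by glia, in the retina by Muller glia, and passed on to neurons. The transcripts of these 8 enzymes, out of 23997 gene symbols listed, are described here in purified retinal ganglion cells (RGCs) after intraocular pressure (IOP) elevation. The 8 genes were picked from the pathway by name, with the lower level of Phgdh in both pressure groups already known from these data. The comparisons with Control below are therefore descriptions of the 8 enzymes, with no p-value, and counts of calls there serve only to set them beside the share over all genes.

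RGCs were isolated by immunopanning from the retinas of C57BL/6J mice, 8 weeks of age at collection. One group had received saline in the anterior chamber of the eye (Control), and 2 groups had received microbeads that raised the IOP over 2 weeks to a lower (Mild IOP) or a higher (Moderate IOP) level. Each group's RNA was combined in 1 pool and then split into 3 technical replicates, so the 9 libraries came from 3 pools, and every error and p-value below covers the spread between libraries of a pool and not between animals. Expression was measured as FPKM, a count of sequenced fragments relative to transcript length and to all mapped fragments, which allows levels of different genes to be compared per length. Libraries were scaled to a common median ratio, with factors between 0.983 and 1.06, and all levels below are scaled FPKM. The depth derived from the width of the deposited confidence intervals lay between 4370000 and 7810000 fragments per library. The most abundant gene of a library held 20.5% of the summed FPKM in Mild IOP replicate 2 and 9.14% in Moderate IOP replicate 3, against at most 3.59% in the other 7 libraries. RGC markers (Rbpms, Pou4f1, Pou4f2, Sncg, Nefl, Thy1, Slc17a6 and Tubb3) were all detected, with a summed level of 1672 to 1800 in Control, 1235 to 1531 with Mild IOP and 2530 to 2742 with Moderate IOP. Sncg alone held 41.0 to 55.8% of this sum in each library. The other 7 summed to 751 to 869 in Control, 729 to 829 with Mild IOP and 1174 to 1317 with Moderate IOP. Without Sncg, the ranges of Control and Mild IOP thus overlapped. In pooled RNA, fewer cells of a type and less RNA per cell cannot be told apart.

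The DNA upstream of the start sites is shown for the 3 members on which the account turns: Phgdh, the first enzyme and the most abundant in Control, Psat1, the enzyme that follows it, and Mthfd2, with the largest log2 difference between the pressure groups. Each sequence holds the 250 bases before the RefSeq start site in build GRCm38.p6 (mm10), written 5′ to 3′ along the gene, with CCAAT boxes in capitals (CCAAT or, on the other strand, ATTGG). All 3 genes lie on the minus strand, and the windows are chr3:98339970-98340219 for Phgdh, chr19:15925060-15925309 for the upstream start site of Psat1 and chr6:83317605-83317854 for Mthfd2.
Phgdh: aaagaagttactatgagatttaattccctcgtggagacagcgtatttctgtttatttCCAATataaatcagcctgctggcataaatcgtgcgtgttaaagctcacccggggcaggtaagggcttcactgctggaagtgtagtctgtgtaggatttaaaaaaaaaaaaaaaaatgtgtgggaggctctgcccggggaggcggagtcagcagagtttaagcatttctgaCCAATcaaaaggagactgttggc
Psat1: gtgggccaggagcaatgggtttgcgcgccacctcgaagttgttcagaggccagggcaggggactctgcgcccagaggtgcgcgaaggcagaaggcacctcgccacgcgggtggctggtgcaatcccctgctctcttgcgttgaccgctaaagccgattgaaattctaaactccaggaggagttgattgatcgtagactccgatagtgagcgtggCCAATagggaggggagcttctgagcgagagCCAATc
Mthfd2: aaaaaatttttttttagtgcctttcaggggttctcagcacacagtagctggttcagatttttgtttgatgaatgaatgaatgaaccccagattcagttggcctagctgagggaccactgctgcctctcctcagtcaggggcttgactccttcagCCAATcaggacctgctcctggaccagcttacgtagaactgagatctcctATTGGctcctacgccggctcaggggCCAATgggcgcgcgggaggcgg
Phgdh held 2 CCAAT boxes, with 188 and 18 bases between them and the start site, Psat1 held 2, with 31 bases and 1 base, and Mthfd2 held 3, with 91, 42 and 17 bases. All 8 enzymes were matched in RefSeq, and 6 of them (Phgdh, Psat1, Psph, Shmt1, Mthfd1 and Mthfd2) had a CCAAT box in such a window, which 33.8% of the 32851 RefSeq windows of this length held. Windows with 3 or more made up 2.79% of all. The letters TGATGNAA, searched for on both strands as a form of the Atf4 element, occurred in no member's window and in 3.45% of all windows. Likewise the E-box CACGTG was found in none of the members and in 6.02% of all windows, whereas the GC box GGGCGG was found in 5 members and in 32.7% of all windows. A member was counted if any of its windows held a match. Psat1 is among these 5 through the window of its other start site (chr19:15924623-15924872). That window held no CCAAT box, and the Psat1 window shown held no GC box. A match is a description of these letters and not of a bound factor. In the windows shown, Phgdh and Psat1 had the same number of CCAAT boxes, and their levels in the pressure groups are described next.

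Phgdh was the most abundant of the 8 transcripts in Control and was far below that level in both pressure groups. The gene lies on chromosome 3 (98313171 to 98339969, mm10). Its level was 44.1, 47.1 and 40.9 in the Control replicates, 24.5, 25.5 and 21.7 in Mild IOP and 18.5, 20.0 and 24.7 in Moderate IOP. Every Control library was above every library of either pressure group, and the ranges of Mild and Moderate IOP overlapped. Group means were 44.1 ± 3.08, 23.9 ± 2.00 and 21.1 ± 3.26 (SD, n = 3). Relative to the Control mean this was a difference of −45.7% under Mild and −52.2% under Moderate IOP. On the log2(scaled FPKM + 1) scale, used for all log2 differences here, the difference from Control was −0.86 (SE 0.15) in Mild IOP and −1.04 (SE 0.15) in Moderate IOP. Moderate IOP differed from Mild IOP by −0.18 (SE 0.15, 95% interval −0.51 to 0.15, adjusted p = 0.53 by limma), so no difference between the pressure levels was detected. Each value rested on 159 to 752 fragments. Phgdh stood above 83.0% of the 13043 genes tested in Control, above 73.1% in Mild IOP and above 69.8% in Moderate IOP.

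Psat1 had nearly the same mean in Control and Mild IOP. On chromosome 19 (15905123 to 15925059), it was at 33.1, 23.8 and 27.9 in Control, 26.7, 25.5 and 31.3 with Mild IOP and 25.4, 18.3 and 27.4 with Moderate IOP. All 3 ranges overlapped. The log2 difference from Control was −0.01 (SE 0.19, 95% interval −0.42 to 0.40) in Mild IOP and −0.25 (SE 0.19, 95% interval −0.66 to 0.16) in Moderate IOP, and between the pressure groups it was −0.24 (adjusted p = 0.51). The ratio of Phgdh to Psat1 within a library was 1.33 to 1.98 in Control, 0.692 to 1.00 with Mild IOP and 0.727 to 1.09 with Moderate IOP. No library of a pressure group reached the lowest Control ratio.

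Psph, on chromosome 5 (129765558 to 129787253), was below Control in every Mild IOP library but not in every Moderate IOP library. Its level was 24.7, 28.9 and 21.3 in Control, 15.6, 16.1 and 15.6 with Mild IOP and 20.0, 30.7 and 16.1 with Moderate IOP. The 3 Mild libraries were close together and below all Control libraries, while the Moderate libraries spread across both groups. The log2 differences were −0.62 (SE 0.22) for Mild IOP and −0.20 (SE 0.22) for Moderate IOP against Control, and 0.42 (SE 0.22, adjusted p = 0.29) for Moderate against Mild IOP. Summed over the 3 enzymes of serine synthesis, the level was 97.2 ± 6.32 in Control, 67.5 ± 0.990 with Mild IOP and 67.1 ± 2.76 with Moderate IOP (SD, n = 3). The share of Phgdh in this sum was 43.3 to 47.2% in Control, 31.6 to 38.0% with Mild IOP and 28.9 to 36.2% with Moderate IOP.

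**Figure D1:**
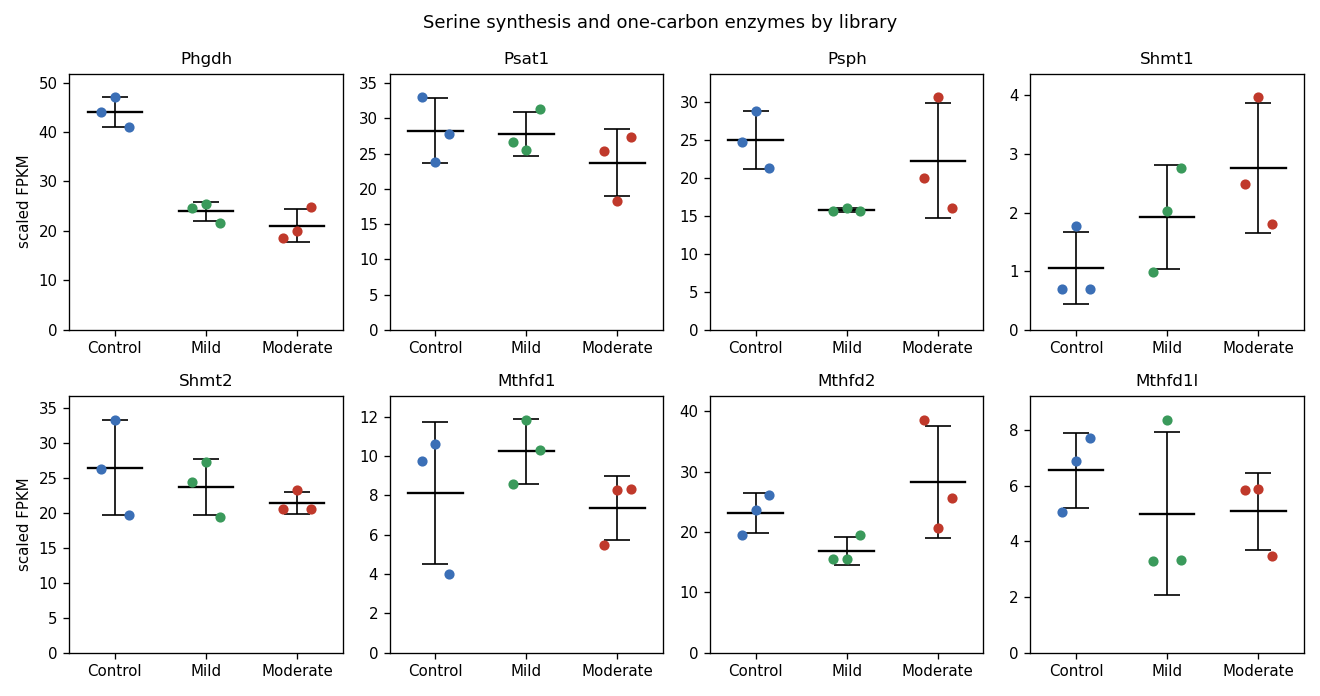
Scaled FPKM of the 8 enzymes in the 3 libraries of each group (points), with the group mean (line) and SD (bars), each axis starting at 0. Phgdh is at 40.9 to 47.1 in Control and at 18.5 to 25.5 in the 6 libraries of the pressure groups, whereas the points of Psat1 and Shmt2 overlap in all groups.

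The serine hydroxymethyltransferases were represented mostly by the mitochondrial form in every group. Shmt2, on chromosome 10 (127517123 to 127522444), was at 26.2, 33.3 and 19.7 in Control, 24.4, 27.2 and 19.4 with Mild IOP and 20.5, 23.3 and 20.6 with Moderate IOP. The ranges overlapped in each comparison, with log2 differences of −0.14 for Mild IOP and −0.26 for Moderate IOP against Control and −0.13 between the pressure groups (SE 0.20 each, adjusted p = 0.76 for the last). Shmt1, on chromosome 11 (60788897 to 60811265), was the lowest of the 8 in every group and rested on only 7 to 67 fragments per library. It was at 0.695, 1.76 and 0.700 in Control, 0.990, 2.02 and 2.76 with Mild IOP and 2.49, 3.97 and 1.81 with Moderate IOP. All Moderate libraries were above all Control libraries, the lowest of the former at 1.81 and the highest of the latter at 1.76. The log2 difference was 0.50 (SE 0.34) in Mild IOP and 0.87 (SE 0.34) in Moderate IOP against Control, and 0.37 (SE 0.34, adjusted p = 0.58) between the pressure groups. Over the alternatives the difference from Control ran from 0.29 to 0.83 in Mild IOP and from 0.65 to 1.36 in Moderate IOP, highest with a pseudocount of 0.1. Shmt2 made up 96.3 ± 1.24% of the 2 transcripts in Control, 92.2 ± 4.33% with Mild IOP and 88.8 ± 3.25% with Moderate IOP (SD, n = 3).

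Mthfd2, the mitochondrial methylenetetrahydrofolate dehydrogenase that is usually low in adult tissues, showed its largest difference between the 2 pressure levels. The gene lies on chromosome 6 (83305704 to 83317604). Its level was 19.5, 23.6 and 26.1 in Control, 15.4, 15.5 and 19.5 with Mild IOP and 38.6, 20.7 and 25.6 with Moderate IOP. All Moderate libraries were above all Mild libraries, and the highest Mild library was just below the lowest Control library. Moderate IOP differed from Mild IOP by 0.68 (SE 0.22, 95% interval 0.19 to 1.17), with an unadjusted p of 0.011 and an adjusted p of 0.103, which missed the threshold of 0.1. The adjusted p was 0.069 to 0.28 over the alternatives tried. Without Moderate IOP replicate 1, the library at 38.6, the difference was 0.44 (adjusted p = 0.24). Against Control the log2 difference was −0.43 (SE 0.22) in Mild IOP and 0.25 (SE 0.22) in Moderate IOP.

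Mthfd1, the cytosolic enzyme with 3 activities on chromosome 12 (76255232 to 76319820), was at 9.77, 10.6 and 4.0 in Control, 8.56, 11.9 and 10.3 with Mild IOP and 5.47, 8.30 and 8.32 with Moderate IOP. The Moderate libraries were all below the Mild libraries, and Control, with replicate 3 at 4.0, overlapped with both. The log2 difference between the pressure groups was −0.44 (SE 0.31, adjusted p = 0.46), and the differences from Control were 0.38 in Mild IOP and −0.05 in Moderate IOP. Over the alternatives these ran from −0.0037 to 0.61 and from −0.44 to 0.17, with both lowest values found without Control replicate 3. Mthfd1l, which makes formate in mitochondria (chromosome 10, 3973075 to 4167081), was at 5.07, 6.89 and 7.73 in Control, 3.28, 8.39 and 3.35 with Mild IOP and 5.86, 5.89 and 3.49 with Moderate IOP. Its ranges overlapped throughout, with log2 differences of −0.42, −0.33 and 0.09 (SE 0.33 each, adjusted p = 0.91 for Moderate against Mild IOP). Over the alternatives the Mild difference from Control ran from −0.80, without Mild IOP replicate 2, to −0.23, and the Moderate one from −0.48 to −0.12. The mitochondrial share of the 3 Mthfd transcripts, that of Mthfd2 plus Mthfd1l, was 71.6 to 89.4% in Control, 66.8 to 68.9% with Mild IOP and 76.2 to 89.1% with Moderate IOP. Every Mild library was thus below every library of the other 2 groups in this share.

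**Figure D2:**
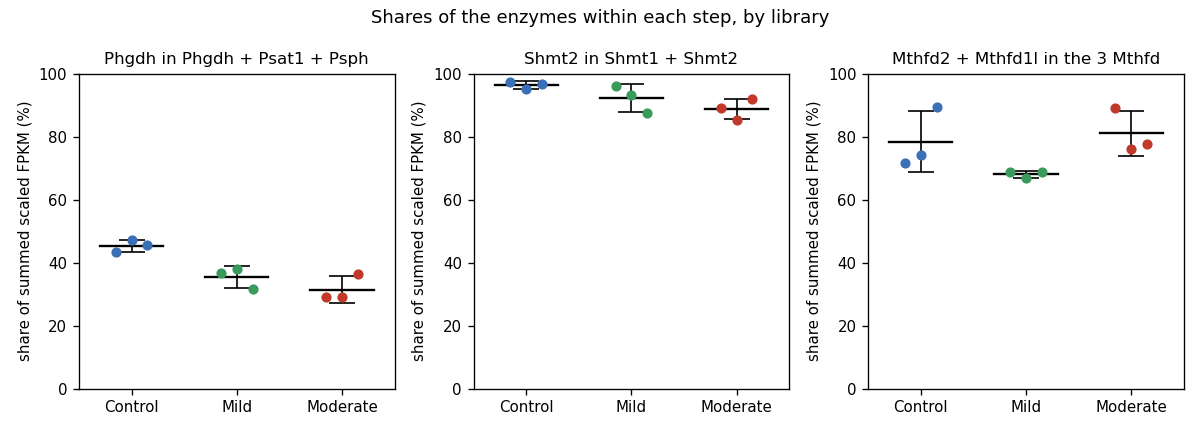
Share in percent of Phgdh in the 3 serine synthesis transcripts, of Shmt2 in the 2 Shmt transcripts, and of Mthfd2 plus Mthfd1l in the 3 Mthfd transcripts, by library (points) with group mean (line) and SD (bars). The share of Phgdh is 43.3 to 47.2% in Control and at most 38.0% in the pressure groups, and the mitochondrial Mthfd share is lowest in Mild IOP, at 66.8 to 68.9%.

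The order of the 8 levels differed between the groups. In Control it was Phgdh, Psat1, Shmt2, Psph, Mthfd2, Mthfd1, Mthfd1l and Shmt1, and the ranges of neighbours were apart at 3 places: after Phgdh, after Mthfd2 and after Mthfd1l. In Mild IOP, Psat1 was first and Phgdh the second, and the ranges of Psat1, Phgdh, Shmt2, Mthfd2 and Psph overlapped from each to the next. In Moderate IOP, Mthfd2 came first and Phgdh was the fifth, again with overlap between neighbours down to Phgdh. Mthfd1, Mthfd1l and Shmt1 kept the last places in each group. Summed over the 8, the level was 162.5 ± 13.8 in Control, 125.2 ± 6.41 with Mild IOP and 132.0 ± 4.45 with Moderate IOP, while the sum of the 5 folate enzymes was 65.3 ± 9.57, 57.7 ± 6.49 and 64.9 ± 7.00 in the same order (SD, n = 3).

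Counted over the 8 enzymes, all of which passed the filter of a mean of at least 0.5, Phgdh was the 1 member with an adjusted p below 0.1 in Mild IOP against Control, where 0.399% of all genes tested were called. It was also the 1 member called in Moderate IOP against Control, where 1.84% of all genes were called. The choice of the members rests on these comparisons with Control, so nothing is read from the 2 counts. In Moderate against Mild IOP, where 10.2% of all genes were called, 0 of 8 members were called by limma and 1, Mthfd2, had an unadjusted p below 0.05. Replicate ranges did not overlap for 3 of 8 members in Mild IOP against Control (Phgdh, Psph and Mthfd2, all lower), against 17.1% of all genes. They did not overlap for 2 of 8 in Moderate IOP against Control (Phgdh lower, Shmt1 higher), against 19.4%, and for 2 of 8 in Moderate against Mild IOP (Mthfd2 higher, Mthfd1 lower), against 27.5%. Both counts of ranges against Control include Phgdh, whose lower level was known when the members were picked, so nothing is read from them. The count between the pressure groups is close to the background. The median log2 difference of the members was −0.28, −0.22 and −0.02 in the 3 comparisons, beside 0.01, 0.00 and −0.02 for all genes tested. The 2 comparisons with Control share their Control libraries.

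The log2 difference of Phgdh from Control ranged from −0.91 to −0.79 in Mild IOP and from −1.15 to −0.95 in Moderate IOP over the 18 alternatives. The Mild call was lost when any of Control replicates 1, 2 and 3, Mild IOP replicates 1 and 2 or Moderate IOP replicate 2 was left out and when replicate number was fitted as a block. Without Mild IOP replicate 2, the library with the single dominant gene, the Mild difference was −0.91, and without Moderate IOP replicate 3 the Moderate difference was −1.15.

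**Figure D3:**
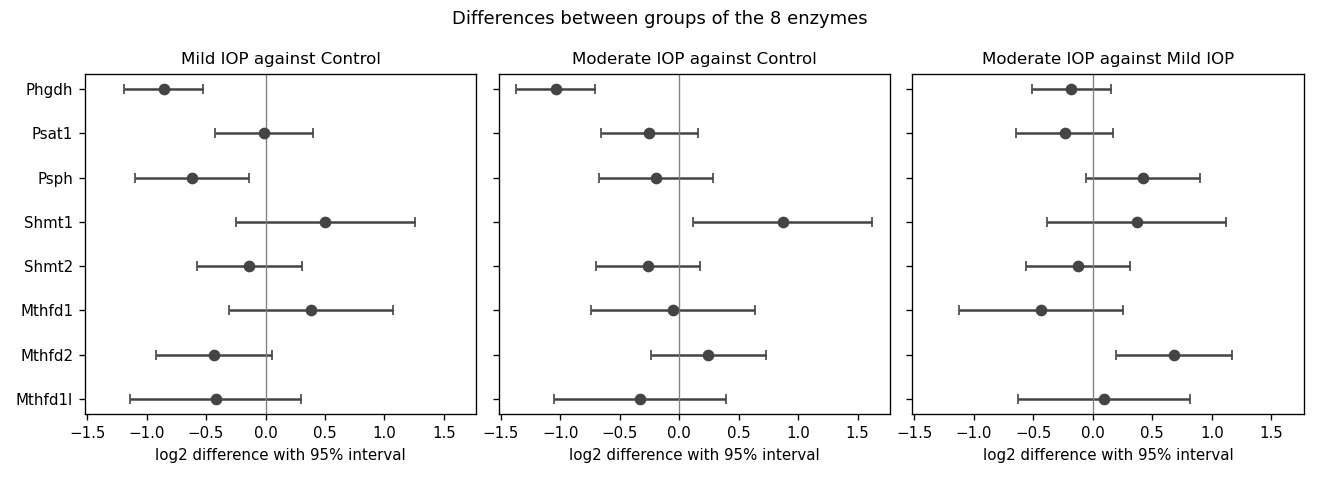
Log2 difference of log2(scaled FPKM + 1) for the 8 enzymes in the 3 comparisons, as fitted by limma over all 9 libraries, with 95% intervals of the single gene. Phgdh lies at −0.86 and −1.04 against Control and at −0.18 between the pressure groups, and Mthfd2 lies at 0.68 in Moderate against Mild IOP.

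Transcripts of other cell types also differed between the pools, and their levels are given beside that of Phgdh. Markers of rods, photoreceptors that are not RGCs, were all 9 detected, among them Sag, Pde6b and Nrl, with a summed level of 527 to 605 in Control, 379 to 393 with Mild IOP and 369 to 405 with Moderate IOP. On the log2 scale all 9 had a lower mean than Control in both pressure groups. In scaled FPKM the mean of Pdc was 63.1 with Mild IOP and 62.1 in Control. By limma, 2 of 9 were called in Mild IOP and 3 of 9 in Moderate IOP, beside 0.399% and 1.84% of all genes. The 12 lens markers summed to 356 to 428 in Control, 9.87 to 11 with Mild IOP and 9.66 to 17.4 with Moderate IOP. Of the 10 lens markers tested, 9 were called lower in each of Mild and Moderate IOP, beside 51 and 116 of all 13043 genes. Cryba1, Crygs, Lim2 and Mip were listed at 0 in all libraries of both pressure groups. The part of these differences in the lower level of Phgdh was not tested.

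Among markers of Muller glia, the cells in which the retina is known to make serine, most of the summed level came from 1 gene, Dkk3, at 63.2 to 82.6% of the sum in each library. The 12 genes summed to 605 to 625 in Control, 629 to 667 with Mild IOP and 612 to 671 with Moderate IOP, and Dkk3 alone was at 474 to 503, 468 to 551 and 393 to 451. The other 11 summed to 121 to 137 in Control, 116 to 161 with Mild IOP and 190 to 247 with Moderate IOP, where every library was above those of the other groups. No marker was called in Mild IOP against Control, beside 0.399% of all genes, with a median log2 difference of 0.08 over the 9 tested. In Moderate IOP against Control the median was 0.60, and 2 of the 9 (Apoe and Rlbp1) were called higher, beside 124 of all 13043 genes. Rlbp1, a retinoid carrier of these glia, was at 4.46 ± 0.156 in Control, 12.4 ± 4.20 with Mild IOP and 14.5 ± 6.50 with Moderate IOP. Slc1a3, their glutamate transporter, was at 1.80 to 2.38 in Control and 1.85 to 2.35 with Moderate IOP. With Mild IOP it was higher, at 2.86 to 3.09. The part of these differences in the level of Phgdh was not tested. The 4 astrocyte markers summed to 1033 to 1254, 892 to 1072 and 1137 to 1218, of which Aldoc made up at least 99.5% in each library and the other 3 at most 5.94. Amacrine cell markers (9 genes) summed to 1782 to 1898 in Control, 1819 to 2031 with Mild IOP and 1360 to 1540 with Moderate IOP. The other lists were low in every library: at most 46.8 for the 7 bipolar cell markers, 34.7 for the 8 microglia markers, 11.5 for the 7 endothelial and mural markers and 24.9 for the 6 pigment epithelium markers. Rlbp1 is in the pigment epithelium list too and made up 55.2 to 90.8% of its sum in each library. The other 5 genes of that list summed to at most 3.55.

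**Figure D4:**
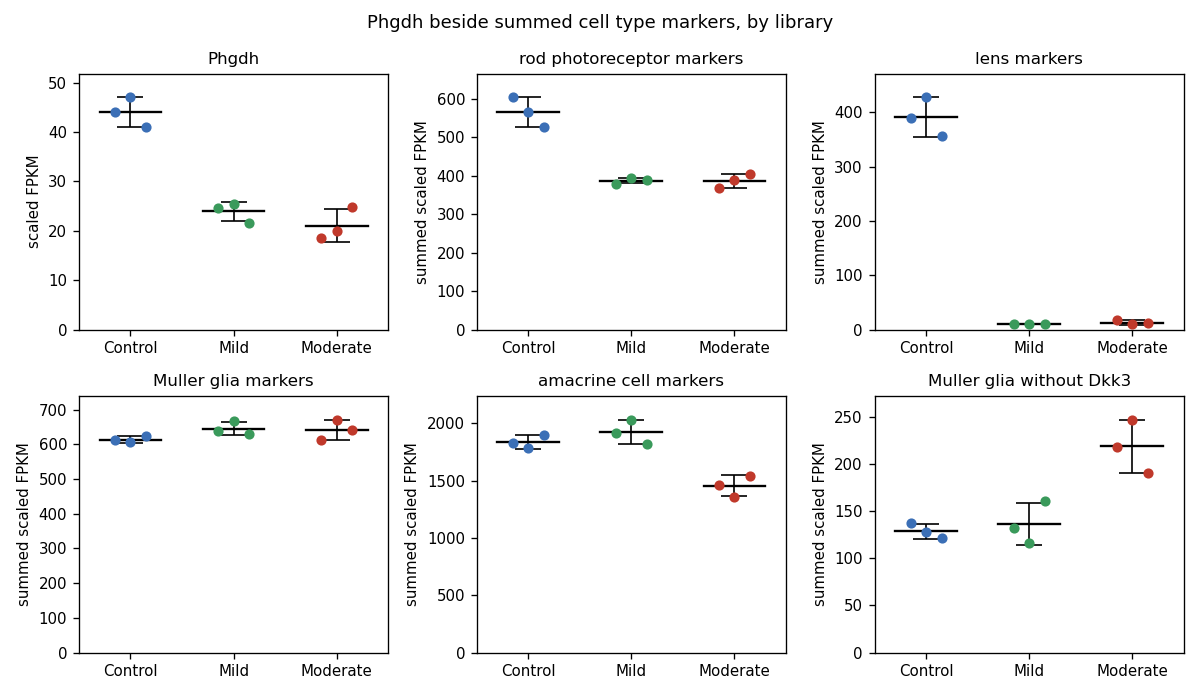
Scaled FPKM of Phgdh and summed scaled FPKM of the rod, lens, Muller glia and amacrine cell markers, and of the Muller glia markers without Dkk3, by library (points), with group mean (line) and SD (bars), each axis starting at 0. Phgdh, the rod sum and the lens sum are higher in the 3 Control libraries than in the other 6, while the Muller glia sum without Dkk3 is highest in Moderate IOP, at 190 to 247.

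The genes whose profile over the 9 libraries was most like that of Phgdh included the rod arrestin Sag. Likeness was the root mean square difference of centred log2 levels, taken over 8179 genes with a mean of at least 5. Among the 5 closest were Haus5 (0.217), of the augmin complex of the spindle, Tgfb3 (0.221), a growth factor, Sag (0.222) and Ntrk3 (0.224), the receptor of neurotrophin 3. Sag was at 163 ± 14.7 in Control, 95 ± 14.2 with Mild IOP and 98.1 ± 7.82 with Moderate IOP, and Haus5 at 9.85 ± 2.25, 6.69 ± 1.25 and 4.99 ± 0.411 (SD, n = 3). Among the enzymes compared, the closest to Phgdh was Shmt2 at rank 634, followed by Psat1 at rank 1558, Psph at rank 1828 and Mthfd1l at rank 2979. Mthfd1 (rank 5990) and Mthfd2 (rank 6100) were farther away than most genes.

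Of 79 other genes of the pathway, in 5 lists, 64 were expressed highly enough to be tested. None was called by limma in Mild IOP against Control, beside 0.399% of all genes, and 8 of the 64 had an unadjusted p below 0.05, beside 1324 of all 13043. In Moderate IOP against Control 2 were called, both lower, beside 1.84% of all genes, and in Moderate against Mild IOP 1 was called, also lower, beside 10.2% of all genes. Gldc, the decarboxylase of the glycine cleavage system, and Mtr, methionine synthase, were among the 15 below the filter, with means of 0.199 and 0.431.

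Slc6a9, the glycine transporter GlyT1, showed the largest called differences of the pathway. Its level was 118, 111 and 101 in Control, 149, 148 and 142 with Mild IOP and 46.5, 38.8 and 32.6 with Moderate IOP. The 3 groups did not overlap, with Mild IOP highest and Moderate IOP lowest. The log2 difference from Control was 0.40 (SE 0.14, adjusted p = 0.31) in Mild IOP and −1.48 (SE 0.14, adjusted p = 0.00062) in Moderate IOP, and Moderate IOP differed from Mild IOP by −1.88 (SE 0.14, adjusted p = 0.00022). Both calls were made in each of the 18 alternatives. RGC isolation included a negative panning step against amacrine cells. Slc6a9 is also a marker of glycinergic amacrine cells and part of the amacrine list, which summed to 1360 to 1540 in Moderate IOP and to 1782 or more in each library of the other groups. The part of that difference in the level of Slc6a9 was not tested. The other 8 transporters tested were not called, among them Sfxn1, the mitochondrial serine carrier, at 71.7 ± 12.4, 65.1 ± 5.11 and 76.8 ± 9.87 (SD, n = 3).

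Sars, the cytosolic seryl-tRNA synthetase that loads serine for translation, was the second gene called. It was at 162, 157 and 153 in Control, 136, 133 and 128 with Mild IOP and 109, 118 and 111 with Moderate IOP, with no overlap between the groups. The log2 difference in Moderate IOP against Control was −0.48 (SE 0.10, adjusted p = 0.058), and its adjusted p was 0.035 to 0.20 over the alternatives, below 0.1 in 10 of 18. The difference itself stayed between −0.52 and −0.45 in all 18, and the study's own definition of DEGs adds a minimum fold-change that it does not reach. The call was lost without Control replicate 1 or 2, Mild IOP replicate 1, or any single Moderate IOP replicate. In Mild IOP the difference was −0.25 (adjusted p = 0.41).

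Sars belongs to the list of Atf4, a transcription factor that amino acid shortage induces, and its response genes, in which most means were below Control. Means are compared here on the log2 scale. In Mild IOP, 15 of the 16 genes had a lower mean than Control, with a median log2 difference of −0.25. Of all 13043 genes tested, 6390 had a lower mean. The replicate ranges of 7 of the 16 were below those of Control, which held for 1191 of the 13043, 5 had an unadjusted p below 0.05, beside 1324 of the 13043, and 0 were called. In Moderate IOP, 14 of 16 means were lower, beside 6456 of all 13043, with a median of −0.23. The ranges of 3 of the 16 were below those of Control, beside 1237 of the 13043, 4 had an unadjusted p below 0.05, beside 1994, and 1, Sars, was called. Atf4 itself was at 230 ± 27.5, 172 ± 30.7 and 221 ± 9.45 (SD, n = 3), a log2 difference of −0.43 in Mild IOP (adjusted p = 0.31) and −0.05 in Moderate IOP (adjusted p = 0.91). Asns, asparagine synthetase, was at 173 ± 3.71, 152 ± 19.7 and 182 ± 22.9, with adjusted p-values of 0.68 and 0.87 against Control.

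In the remaining lists no gene was called in any comparison, apart from Slc6a9. Medians of the 9 transporters tested were −0.12, −0.26 and −0.09 for Mild and Moderate IOP against Control and Moderate against Mild IOP. Of 14 tested genes of serine and glycine use, 0 were called in any comparison, with medians of −0.05, 0.11 and −0.05 in the same order. The most abundant were Serinc1, at 365 ± 18.5, 407 ± 11.8 and 348 ± 25.5, and Serinc3, at 101 ± 5.51, 113 ± 9.42 and 96.6 ± 7.03, named as serine incorporators of membranes. Of 15 tested genes of the folate cycle and its transport, 0 were called, with medians of −0.06, −0.06 and 0.10. Slc46a1, the proton-coupled folate transporter, was at 24.6 ± 1.13, 24.3 ± 4.25 and 19.2 ± 0.344, and Mthfs, which returns formyl folate to the cycle, at 15.1 ± 4.21, 14.4 ± 3.51 and 15 ± 8.16. Of 10 tested genes of the methionine cycle and methyl transfer, 0 were called, with medians of 0.08, −0.12 and −0.23. Mat2a, which makes S-adenosylmethionine, was at 98.3 ± 5.36, 110 ± 4.91 and 94.6 ± 9.21, and its regulatory partner Mat2b at 48.3 ± 2.49, 51.7 ± 9.49 and 65.7 ± 1.03 (SD, n = 3, log2 difference 0.44 in Moderate IOP against Control, adjusted p = 0.18).

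**Figure D5:**
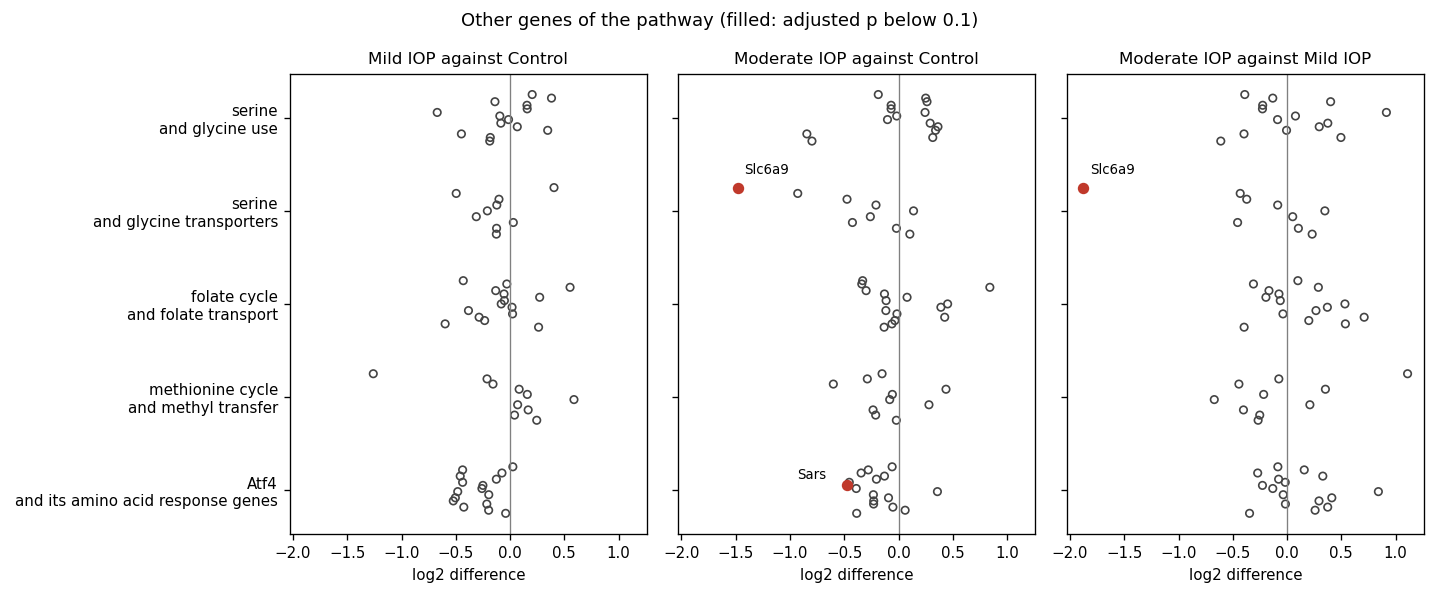
Log2 difference of each of the 64 tested genes in the 5 lists of the wider pathway, for the 3 comparisons, with filled points for an adjusted p below 0.1. Slc6a9 lies at −1.48 and −1.88, apart from the other transporters, Sars at −0.48, and in Mild IOP 15 of the 16 points of the Atf4 list lie below 0.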

How the data were processed

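RNA sequencing covered RGCs of 3 groups with 3 technical replicates each. The authors made cDNA with SMART-seq v4 and Nextera XT, for paired reads of 100 bp. The labels name TopHat2, Cufflinks and Cuffdiff with mm10, whereas the study's methods name bowtie2 as aligner. The deposited values are FPKM per locus, estimated by the authors with Cufflinks for each library separately, with a confidence interval. Intervals for estimates of this kind describe error within a library, of which counting error is a part. No library totals were used here. Fragments behind a value were derived as (2 × FPKM / (upper bound − FPKM)) squared, as if counting error were the whole. Depth was derived from genes of at least 2000 nt and 100 fragments, so both are approximate.

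Where loci shared a symbol, their FPKM were added. Median-of-ratios factors scaled the libraries, and values entered the fit as log2(scaled FPKM + 1). The fit used limma (version 3.58.1, R version 4.3.3) with 3 group means and trended empirical Bayes moderation. It covered 13043 genes, those with an average scaled FPKM of 0.5 or more, and 2 with a failed estimate were left out. Benjamini-Hochberg adjustment ran over all genes tested in a comparison, and genes were called below 0.1, the FDR threshold of the study, whose added minimum fold-change was not applied. The script was tested on simulated data. Other steps used Python (3.11.15), pandas (2.3.3), numpy (2.4.6), matplotlib (3.10.9) and scipy (1.17.1).

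The members, the 5 lists of other pathway genes and the 10 lists of cell type markers were chosen with earlier results of these data known. Named were all 8 members, each other pathway gene called in any comparison, the 2 most abundant genes of each pathway list, and the 5 genes most like Phgdh, of which 1 is not reported here. Gldc, Mtr, Slc1a3, Dkk3, Aldoc and the called markers were named after their values were seen, and marker sums without the most abundant gene were added then. Promoter windows came from RefSeq start sites. Alternatives covered the scaling, pseudocount, filter, failed estimates, groups in the fit, a replicate block and each library left out. Reads were not realigned, and the authors' own tests were not used.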

Additional observations from a re-analysis of the deposited data

Results flagged for a closer look

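Slc6a9, which encodes the glycine transporter GlyT1, differed between the 2 pressure levels in its response against the same Control. Mean scaled FPKM came to 146 ± 3.81 under Mild and 39.3 ± 6.93 under Moderate IOP, beside 110 ± 8.57 in Control (SD, n = 3). The difference itself was tested by comparing the pressure groups, which gave a log2 difference of −1.88 (SE 0.14, adjusted p = 0.00022 by limma), with 3 of 3 Moderate libraries below all Mild libraries. Samples far from the others were not sought, since each group held 3 libraries.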

How the results depend on the processing

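The sign of the Phgdh difference from Control held in all 18 alternatives, and no called difference changed sign. Among the other members, 6 differences took the other sign in 1 to 5 alternatives each, and none of these was called in any setting. Over all genes, Mild IOP against Control gave 52 calls, and 23 with only the compared groups fitted, 24 without a filter and 25 with the replicate block. Moderate IOP against Control gave 240 calls, and 144 with only the compared groups and 135 with the block. Among the other pathway genes, Moderate IOP against Control gave 1 call in place of 2 with only the compared groups or with the block, and Moderate against Mild IOP gave 2 without a filter, 4 without scaling and 2 with upper quartile scaling, in place of 1. Of the 8 enzymes, 1 was called in Moderate against Mild IOP (Mthfd2) when a mean of at least 1 was required, in place of 0. Of the 1324 genes called between the pressure groups, 69.3% were higher in Moderate IOP, against 52.5% without scaling and 59.2% with upper quartile scaling.

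With each library left out in turn, calls ranged from 15 to 183 genes in Mild IOP against Control (183 without Mild IOP replicate 3), 61 to 287 in Moderate IOP against Control and 519 to 1399 between the pressure groups. Members called ranged from 0 to 1, 1 to 1 and 0 to 1, and other pathway genes from 0 to 0, 1 to 2 and 1 to 3. The cause was not tested.

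Replicate numbers did not pair the libraries. Deviations from the group means correlated by 0.012 on average between same-numbered libraries and by −0.0062 between others. With replicate number as a block, the members called in Mild IOP against Control were 0 in place of 1. Shmt1, with 7 to 67 fragments, is the member whose values depth limits most.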
